A study of Mus musculus with 8 samples.

Results

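The 10 genes described here encode inhibitors of the cyclin-dependent kinases of the G1 phase, those kinases, 2 of their D-type cyclins and the protein that they phosphorylate. They are Cdkn2a, Cdkn2b, Cdkn2c, Cdkn2d, Cdkn1b, Cdk4, Cdk6, Ccnd2, Ccnd3 and Rb1. Every probe set (a group of short probes read together as 1 signal) annotated to one of these symbols alone was taken, which gave 24 of the 45101 probe sets on the array. Of these, 20 probe sets of 8 genes passed the filter on low signals and were tested. The other 4 were the only probe sets of Cdkn2a and Cdkn2b and 1 probe set each of Ccnd3 and Rb1. A gene is represented below by its brightest probe set unless another is named.

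Total RNA of 2 mouse cell lines was hybridized to Affymetrix arrays, with 1 array per culture and 8 arrays in all. NIH3T3 is an immortalized embryonic fibroblast line and B16F10 a melanoma line. Cells had been exposed overnight to a viral supernatant with polybrene in order to express PGC7. This protein of the egg and germ line, whose gene is Dppa3 and whose other name is Stella, is known to shield the maternal genome from loss of DNA methylation after fertilization. The groups were NIH3T3 PGC7 (n = 3, made up of 2 clones and 1 uncloned mixture), NIH3T3 control (n = 1), B16F10 PGC7 (n = 3, all clones) and B16F10 control (n = 1). The genotype field of all PGC7 samples named the gene PGC8 and called the cells not yet cloned, so the groups follow the sample titles. The promoter that drives PGC7, and whether the controls received an empty virus, are not given in the sources used here. Clones of 1 infected population may not be independent, and the p-values cover no more than the spread between these cultures, which may be technical.

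In the G1 phase, D-type cyclins activate CDK4 and CDK6, which phosphorylate the retinoblastoma protein and so release E2F factors that drive S phase genes. The INK4 inhibitors (Cdkn2a to Cdkn2d) bind CDK4 and CDK6, whereas the CIP/KIP inhibitor p27, encoded by Cdkn1b, acts mainly on CDK2 with cyclin E or A and also binds cyclin D complexes. Cdkn2a encodes p16 and, in another reading frame, p19ARF, which stabilizes p53. Loss of this locus is known from many immortalized mouse fibroblast lines and from melanoma.

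The line markers went with the labels. The summed signal of 9 fibroblast markers was 21606 to 26266 on B16F10 and 154904 to 192291 on NIH3T3 arrays, and that of 7 melanocyte markers 104710 to 135098 on B16F10 and 624 to 768 on NIH3T3 arrays. Summed signals of 5 macrophage markers were 854 to 1077 on the NIH3T3 PGC7 arrays, against 431 on the NIH3T3 control array, with Cd14 called higher (log2 change 1.92 ± 0.37, adjusted p = 0.0128 in limma), and 122 to 185 on B16F10 arrays. Of the 4 macrophage markers tested only Cd14 was called in NIH3T3, but 3 had a change above 0. Their median change was 1.08, against -0.07 over all tested probe sets. Cd68 had 70.1, 108 and 150 in NIH3T3 PGC7 against 48.0 in the control (adjusted p = 0.164 in limma). Ptprc had 231, 175 and 74.8 against 60.6 (adjusted p = 0.346 in limma). Csf1r had 164, 155 and 120 in NIH3T3 PGC7 against 163 in the control. Of the 9 fibroblast markers, the collagen gene Col1a1 fell in NIH3T3, with 367, 503 and 703 in PGC7 against 23293 in the control (-5.50 ± 0.43, adjusted p = 2.71e-04 in limma). Thy1 had 790, 873 and 2487 in NIH3T3 PGC7 against 4735 in the control and was not called (adjusted p = 0.0600 in limma). Among the 7 melanocyte markers, 0 had a change above 0 in NIH3T3, and Tyrp1 was called lower, at low signals. It had 4.32, 1.65 and 1.94 in NIH3T3 PGC7 against 46.9 in the control (-2.27 ± 0.19, adjusted p = 3.04e-04 in limma). The 4 epithelial markers summed to 141 to 218 on B16F10 and 197 to 398 on NIH3T3 arrays, and 0 of 4 endothelial markers passed the filter. The part of these markers in the results below was not tested. The Dppa3 probe set had signals of 29.7, 55.4 and 101 on the NIH3T3 PGC7 arrays against 69.8 on the control, and 70.0, 117 and 71.0 on the B16F10 PGC7 arrays against 23.5 on the control; neither change was called (adjusted p = 0.802 in NIH3T3 and 0.270 in B16F10 in limma), so this probe set gave no check of the labels.

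Signals are in arbitrary units after every array had been scaled to a trimmed mean of 500. Changes are differences of log2(signal + 9), PGC7 minus control, with their standard errors from the limma fit, and the scale understates changes of low signals. The word called is used where limma's p, adjusted by Benjamini-Hochberg over all 25236 tested probe sets, was under 0.05. A control of 1 array has no spread of its own, and its spread was taken from the PGC7 arrays. All levels are per bulk RNA, in which fewer cells with a transcript and less transcript per cell cannot be told apart. Levels of different genes were not set against each other.

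RefSeq promoter sequences (GRCm38.p6, 250 bases before to 50 after the start of the gene) matched 8 of the 10 symbols, without Ccnd2 and Rb1. The sequences of Cdkn1b and Cdk6, called in opposite directions in NIH3T3 below, are shown 5′ to 3′ on the plus strand, with matches of the searched motifs in capitals. Cdkn1b lies at chr6:134920151-134920450 and Cdk6 at chr5:3343643-3343942.
Cdkn1b: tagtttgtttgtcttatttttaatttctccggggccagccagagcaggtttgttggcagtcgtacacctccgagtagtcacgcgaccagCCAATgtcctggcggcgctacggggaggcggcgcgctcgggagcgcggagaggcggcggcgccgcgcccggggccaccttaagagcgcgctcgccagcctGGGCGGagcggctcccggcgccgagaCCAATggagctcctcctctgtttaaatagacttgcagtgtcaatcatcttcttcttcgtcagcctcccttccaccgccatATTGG
Cdk6: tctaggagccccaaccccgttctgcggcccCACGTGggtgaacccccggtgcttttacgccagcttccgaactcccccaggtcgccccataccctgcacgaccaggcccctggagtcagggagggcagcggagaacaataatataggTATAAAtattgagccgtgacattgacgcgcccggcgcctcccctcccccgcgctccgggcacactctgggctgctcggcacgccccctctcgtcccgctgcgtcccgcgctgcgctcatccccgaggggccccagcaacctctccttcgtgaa
The motifs were searched on both strands. They were GGGCGG, a GC box, found in 35.7% of all 32841 RefSeq promoters, CCAAT in 37.4%, TATAAA in 13.6%, the E-box CACGTG in 7.15%, the FOXO motif GTAAACA in 3.65%, and the E2F motifs TTTCGCG in 0.850% and TTTGGCG in 1.57%. The Cdkn1b window holds GGGCGG at bases 190 to 195 and CCAAT at bases 90 to 94 and 216 to 220, with its reverse complement at 296 to 300. The Cdk6 window holds CACGTG at bases 31 to 36 and TATAAA at bases 148 to 153. No match overlaps another in either window. The windows hold 30 CpG in Cdkn1b and 27 in Cdk6, against a median of 7 over all promoters (25th to 75th percentile 3 to 20), and 62.0% and 66.7% G or C. These matches describe letters only.

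In NIH3T3, 3 of the 8 tested genes changed with PGC7: Cdkn1b and Ccnd2 fell and Cdk6 rose. By probe set, 10 of 20 were called, 2 higher and 8 lower. Of all tested probe sets 12.8% were called, 6.47% higher and 6.32% lower, and 7 of the 8 lower calls belong to Ccnd2, so the probe set count leans on 1 gene. In B16F10, 0 of the 8 genes were called in limma, where 1.19% of all probe sets were called. These shares depend on the spread, which the fit shares between the lines. With each line fitted alone, 1151 probe sets were called in NIH3T3 and 2196 in B16F10, against 3229 and 300. In those fits 1 of the 8 genes was called in each line, Ccnd2 in NIH3T3 and Rb1 in B16F10. At an unadjusted p under 0.05, 2 of the 8 genes (Ccnd2 and Rb1) and 5 of the 20 probe sets passed in B16F10, against 15.1% of all probe sets. In NIH3T3 4 of the 8 genes (Cdkn1b, Cdk6, Ccnd2 and Rb1) and 12 of the 20 probe sets did, against 28.8% of all probe sets. All 3 PGC7 arrays lay above the control for 1 and below it for 3 of the 8 genes in NIH3T3, against 28.9% and 38.3% of all probe sets. In B16F10 they lay above it for 4 and below it for 2 genes, against 37.0% and 32.2% of all probe sets. None of the 8 genes was called in both lines in opposite directions, as were 0.127% of all probe sets. The median log2 change of the 8 genes was -0.13 in NIH3T3 and 0.14 in B16F10, against -0.07 and 0.02 over all tested probe sets.

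**Figure D1:**
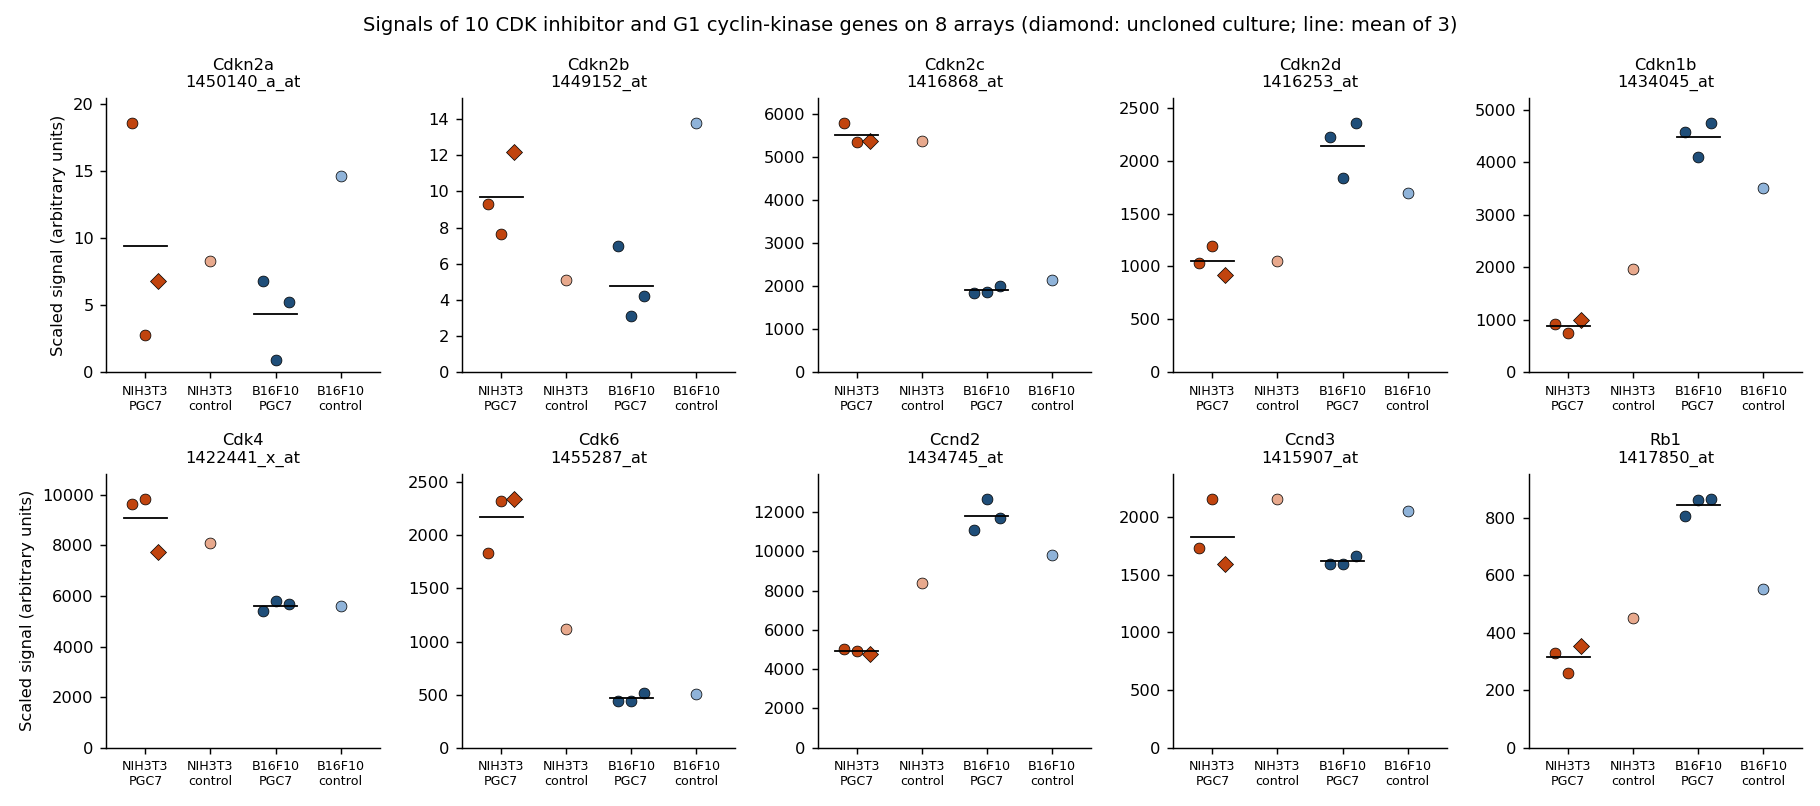
Scaled signal (arbitrary units, each panel with its own linear axis from 0) of the brightest probe set of each gene on all 8 arrays. Points are single arrays, diamonds the uncloned NIH3T3 culture and lines the mean of 3 PGC7 arrays. Cdkn1b and Ccnd2 lie below and Cdk6 above the control in NIH3T3, while Cdkn2a and Cdkn2b have at most 18.6 on any array.

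Cdkn2a and Cdkn2b, the neighbouring genes of p16, p19ARF and p15, were low on every array. Cdkn2a had signals of 18.6, 2.76 and 6.79 in NIH3T3 PGC7 clone 1, clone 2 and the uncloned culture, against 8.29 in the control. In B16F10 it had 6.81, 0.886 and 5.20 in PGC7 clones 1 to 3, against 14.6 in the control. The NIH3T3 groups overlap, and all 8 values lie under the filter threshold of 49.3, the median of all values.

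Cdkn2b had 9.30, 7.64 and 12.2 in NIH3T3 PGC7, against 5.10 in the NIH3T3 control. It had 6.99, 3.12 and 4.19 in B16F10 PGC7, against 13.8 in the B16F10 control. At such signals the arrays gave no detectable change: fitted without the filter, Cdkn2a had log2 changes of -0.00 in NIH3T3 and -0.86 in B16F10 (adjusted p = 0.998 and 0.696 in limma), and Cdkn2b 0.40 and -0.74 (adjusted p = 0.634 and 0.602 in limma). The only Cdkn2a probe set was not split here between the p16 and p19ARF transcripts.

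Mtap, a methionine salvage enzyme whose gene is the next measured one on 1 side of this locus on chromosome 4, was bright on every array. It had 17827, 18772 and 18737 in NIH3T3 PGC7, against 12330 in the NIH3T3 control. In B16F10 it had 5549, 5873 and 5366 in PGC7 clones, against 9440 in the control. Its signal rose in NIH3T3 (log2 change 0.58 ± 0.10, adjusted p = 0.00743 in limma) and fell in B16F10 (-0.75 ± 0.10, adjusted p = 0.0140 in limma). The NIH3T3 call held in 13 of 16 alternative settings and the B16F10 call in 12 of 16, where it was lost without clone 1 (-0.75) and without clone 3 (-0.72), both at an adjusted p of 0.0677 in limma. With the deposited values and with a constant variance prior neither call held (adjusted p = 0.161 and 0.0663 in NIH3T3, 0.110 and 0.116 in B16F10, limma), and the NIH3T3 call was also lost in that line alone (0.0680). Of the 12 nearest measured genes around the locus only 4 passed the filter: Mtap, Ifnz, Elavl2 and Caap1. Of these Elavl2 was also called in NIH3T3 (-1.65, adjusted p = 0.0462 in limma), a call that held in 2 of 13 alternative settings.

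Cdkn2c, which encodes the INK4 inhibitor p18, had signals of 5803, 5361 and 5388 in NIH3T3 PGC7, against 5378 in the NIH3T3 control. In B16F10 it had 1840, 1862 and 1995 in PGC7 clones, against 2144 in the control. The NIH3T3 values surround their control, while all 3 B16F10 clones lie below theirs. Neither difference was called: the log2 change was 0.04 in NIH3T3 (95% interval -0.22 to 0.29, adjusted p = 0.873 in limma) and -0.18 in B16F10 (-0.43 to 0.08, adjusted p = 0.525).

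Cdkn2d, which encodes the INK4 inhibitor p19INK4d, had 1031, 1191 and 918 in NIH3T3 PGC7, against 1050 in the NIH3T3 control. It had 2227, 1835 and 2358 in B16F10 PGC7, against 1697 in the B16F10 control. Again the NIH3T3 groups overlap, and in B16F10 the clones lie above the control without a call. The log2 change was -0.01 in NIH3T3 (95% interval -0.45 to 0.42, adjusted p = 0.978 in limma) and 0.33 in B16F10 (-0.11 to 0.76, adjusted p = 0.476).

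Cdkn1b, the p27 gene on chromosome 6, fell in NIH3T3 with PGC7. Its signals were 908, 740 and 994 in NIH3T3 PGC7 (881 ± 129, SD, n = 3), against 1964 in the NIH3T3 control. In B16F10 they were 4584, 4103 and 4755 in PGC7 clones (4481 ± 338, SD, n = 3), against 3517 in the control. Every NIH3T3 PGC7 array is below its control and every B16F10 clone above its own. The log2 change in NIH3T3 was -1.16 ± 0.17 (adjusted p = 0.00433 in limma), a 2.23-fold lower signal, and that in B16F10 0.35 ± 0.17 (adjusted p = 0.402), not called. The second, dimmer probe set 1419497_at, with 28.1 to 51.2 in NIH3T3 PGC7 against 90.3 in the control, had a change of the same sign that was not called (-1.09, adjusted p = 0.134 in limma). The NIH3T3 call was lost with scaling on the added poly-A spikes (-0.71, adjusted p = 0.0820 in limma) and in the NIH3T3 arrays alone (adjusted p = 0.0514), and the remaining 14 of 16 alternatives kept it.

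The other CIP/KIP genes were read beside it. Cdkn1a, the p53 target that encodes p21, rose in NIH3T3 (7929 ± 515 in PGC7, SD, n = 3, against 4517 in the control), with a log2 change of 0.81 ± 0.15 (adjusted p = 0.00990 in limma). This call held in 14 of 16 alternatives. It was lost with the deposited values (0.68, adjusted p = 0.0623 in limma) and with a constant variance prior (adjusted p = 0.0536). In B16F10 the Cdkn1a change of 0.52 was not called (adjusted p = 0.145 in limma). Cdkn1c, which encodes p57, was under the filter threshold in both lines. Of 8 tested genes of p27 turnover, among them the ubiquitin ligase subunit gene Skp2 and its cofactor Cks1b, 0 were called in either line in limma, while 1 in NIH3T3 and 0 in B16F10 had an unadjusted p under 0.05. That 1 gene was Rbx1, which also had the largest change of the list. It had 78.9, 37.8 and 104 in NIH3T3 PGC7 against 205 in the control (-1.46, adjusted p = 0.116 in limma). The change of Skp2 was -0.23 in NIH3T3 and -0.11 in B16F10.

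Cdk4, on chromosome 10, encodes a kinase that D-type cyclins activate. It had signals of 9635, 9850 and 7751 in NIH3T3 PGC7, against 8096 in the NIH3T3 control. It had 5389, 5800 and 5672 in B16F10 PGC7, against 5586 in the B16F10 control. In both lines the groups overlap. The log2 change was 0.16 in NIH3T3 (95% interval -0.17 to 0.49, adjusted p = 0.525 in limma) and 0.01 in B16F10 (-0.32 to 0.34, adjusted p = 0.988), and the other 2 probe sets were not called either.

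Cdk6, on chromosome 5, encodes the second kinase that D-type cyclins activate, and rose in NIH3T3. Its signals were 1838, 2325 and 2346 in NIH3T3 PGC7 (2170 ± 287, SD, n = 3), against 1121 in the NIH3T3 control. In B16F10 they were 444, 436 and 516 in PGC7 clones (465 ± 44.1, SD, n = 3), against 504 in the control. All 3 NIH3T3 PGC7 arrays lie above their control, and the B16F10 groups overlap. The log2 change in NIH3T3 was 0.94 ± 0.19 (adjusted p = 0.0150 in limma), 1.92-fold, and in B16F10 -0.12 ± 0.19 (adjusted p = 0.829). Probe set 1435338_at was called too (0.84, adjusted p = 0.0138 in limma), with 1575, 1759 and 1915 in NIH3T3 PGC7 against 971 in the control. The dimmest, 1460291_at, with 117 to 155 in NIH3T3 PGC7 against 104 in the control, was not called (0.34, adjusted p = 0.654 in limma). The call of Cdk6 was lost with the deposited scaling (0.80, adjusted p = 0.106 in limma) and in the NIH3T3 arrays alone (adjusted p = 0.0675).

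Ccnd2, on chromosome 6, encodes cyclin D2 and fell in NIH3T3 by all 7 of its probe sets. The brightest had signals of 5006, 4930 and 4787 in NIH3T3 PGC7 (4908 ± 111, SD, n = 3), against 8397 in the NIH3T3 control. In B16F10 it had 11057, 12683 and 11677 in PGC7 clones (11806 ± 821, SD, n = 3), against 9806 in the control. The groups do not overlap in either line, and they differ in opposite directions. The log2 change in NIH3T3 was -0.77 ± 0.11 (adjusted p = 0.00305 in limma), a 1.71-fold lower signal, and in B16F10 0.27 ± 0.11 (adjusted p = 0.294).

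Over the 7 probe sets, which report 1 gene and are not replicates, the log2 change was -0.77 to -1.43 in NIH3T3, with 7 called, and 0.18 to 0.58 in B16F10, with 0 called in limma and 4 at an unadjusted p under 0.05. Probe set 1416124_at had 260, 207 and 344 in NIH3T3 PGC7, against 730 in the NIH3T3 control. Probe set 1416123_at had 80.8, 83.3 and 74.4 in NIH3T3 PGC7, against 198 in the NIH3T3 control. The PGC7 arrays of that line thus lay below the control by bright and dim probe sets alike. With scaling on the poly-A spikes the NIH3T3 change of the brightest was -0.33 and not called (adjusted p = 0.463 in limma). Its distance from the median of all probe sets was -0.68, against -0.70 in the scaling used here. Each scaling multiplies an array by 1 factor, which moves all probe sets nearly alike. That distance could therefore hardly change, and it is no check of the call.

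**Figure D2:**
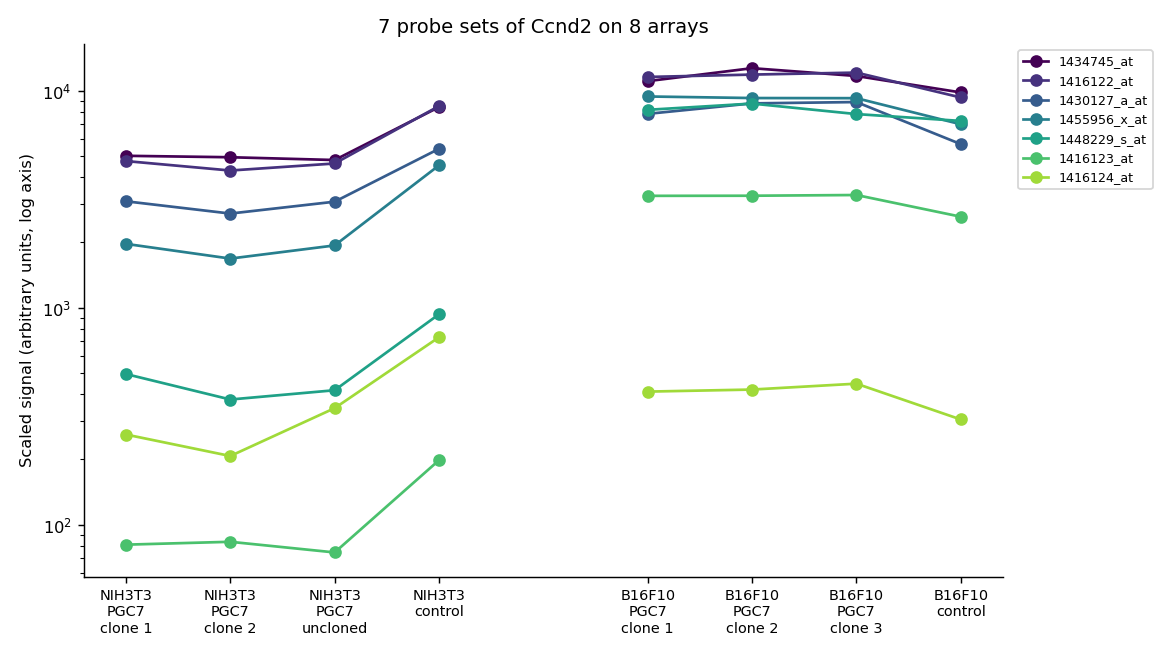
Scaled signal (arbitrary units, log axis) of the 7 probe sets of Ccnd2 on each of the 8 arrays, with a line joining the arrays of a line for each probe set. All 7 are lower on the 3 NIH3T3 PGC7 arrays than on the NIH3T3 control and higher on the 3 B16F10 PGC7 arrays than on the B16F10 control.

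Ccnd3, on chromosome 17, encodes cyclin D3, and was not called in either line. It had signals of 1732, 2161 and 1592 in NIH3T3 PGC7, against 2153 in the NIH3T3 control. It had 1595, 1591 and 1664 in B16F10 PGC7, against 2057 in the B16F10 control. The NIH3T3 groups overlap and the B16F10 clones lie below their control, with log2 changes of -0.25 (adjusted p = 0.390 in limma) and -0.35 (adjusted p = 0.392). The untested probe set 1438805_at had 35.8, 46.5 and 41.2 in NIH3T3 PGC7, against 4.60 in the NIH3T3 control, and without the filter a log2 change of 1.88 that was not called (adjusted p = 0.0661 in limma).

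The third D-type cyclin gene, Ccnd1, rose in NIH3T3 and fell in B16F10. It had 14486, 13711 and 11827 in NIH3T3 PGC7 against 5252 in the control, and 1141, 1321 and 1083 in B16F10 PGC7 against 3707 in the control. Its log2 changes were 1.34 ± 0.15 (adjusted p = 0.00120 in limma) and -1.65 ± 0.15 (adjusted p = 0.00361). In NIH3T3 Ccnd1 and Ccnd2 thus changed in opposite directions.

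Rb1, on chromosome 14, encodes the retinoblastoma protein, the substrate of these kinases. It had signals of 328, 260 and 354 in NIH3T3 PGC7 (314 ± 48.3, SD, n = 3), against 452 in the NIH3T3 control. It had 805, 863 and 867 in B16F10 PGC7 (845 ± 35.1, SD, n = 3), against 552 in the B16F10 control. In both lines the PGC7 arrays lie on 1 side of the control, below it in NIH3T3 and above it in B16F10. Neither change was called in limma: -0.53 ± 0.21 in NIH3T3 (adjusted p = 0.135) and 0.61 ± 0.21 in B16F10 (adjusted p = 0.215). The call depended on single choices, since Rb1 was called in NIH3T3 without the uncloned array (-0.62, adjusted p = 0.0368 in limma) and in B16F10 when that line was fitted alone (0.61, adjusted p = 0.0259). Its other probe set was under the filter threshold.

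**Figure D3:**
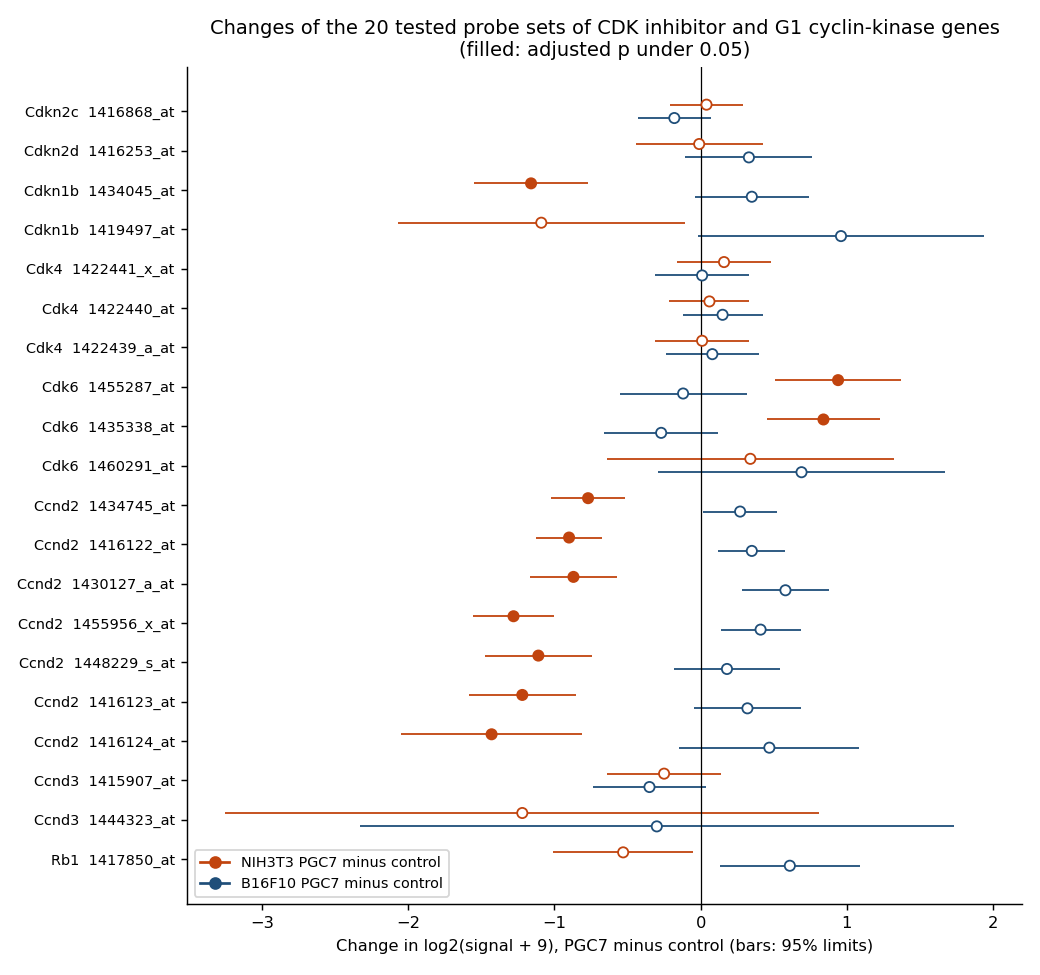
Change in log2(signal + 9), PGC7 minus control, of the 20 tested probe sets in NIH3T3 (orange) and B16F10 (blue), with 95% limits from the limma fit. Filled points are called: 7 Ccnd2 probe sets and 1 of Cdkn1b lower, and 2 of Cdk6 higher, all in NIH3T3.

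The difference between the lines was tested directly as the NIH3T3 change minus the B16F10 change. It was called for Cdkn1b (-1.50 ± 0.25, adjusted p = 0.0115 in limma) and Ccnd2 (-1.04 ± 0.15, adjusted p = 0.00768), both lower in NIH3T3, so that 2 of the 8 genes were called lower and 0 higher. Of all probe sets 6.88% were called, 3.08% higher and 3.80% lower. All 7 Ccnd2 probe sets were called in it, from -1.04 to -1.90. The dimmer Cdkn1b probe set 1419497_at had a difference of -2.05 that was not called (adjusted p = 0.0829 in limma). Cdk6 was just outside the threshold by its brightest probe set (1.06 ± 0.27, adjusted p = 0.0525 in limma) and inside it by 1435338_at (1.11, adjusted p = 0.0284). For Rb1 the difference of -1.13 ± 0.29 was not called (adjusted p = 0.0568 in limma). Cdkn1b, Ccnd2 and Rb1, 3 of the 8 genes, had all 3 PGC7 arrays below the control in NIH3T3 and above it in B16F10, as had 13.0% of all tested probe sets. The mirrored pattern was seen in 0 of the 8 genes and in 8.59% of all probe sets. With scaling on the poly-A spikes the median difference of all probe sets moved to 0.78, against -0.11 as scaled here, and neither the Cdkn1b difference (-0.57, adjusted p = 0.280 in limma) nor that of Ccnd2 (-0.10, adjusted p = 0.875) was called. Under that scaling the differences of Cdkn2c (1.15, adjusted p = 0.0367 in limma) and Cdk6 (1.99, adjusted p = 0.00307) were called instead, both higher in NIH3T3. With a constant variance prior the differences of Cdkn1b and Ccnd2 were as large but not called (adjusted p = 0.0544 and 0.0613 in limma).

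**Figure D4:**
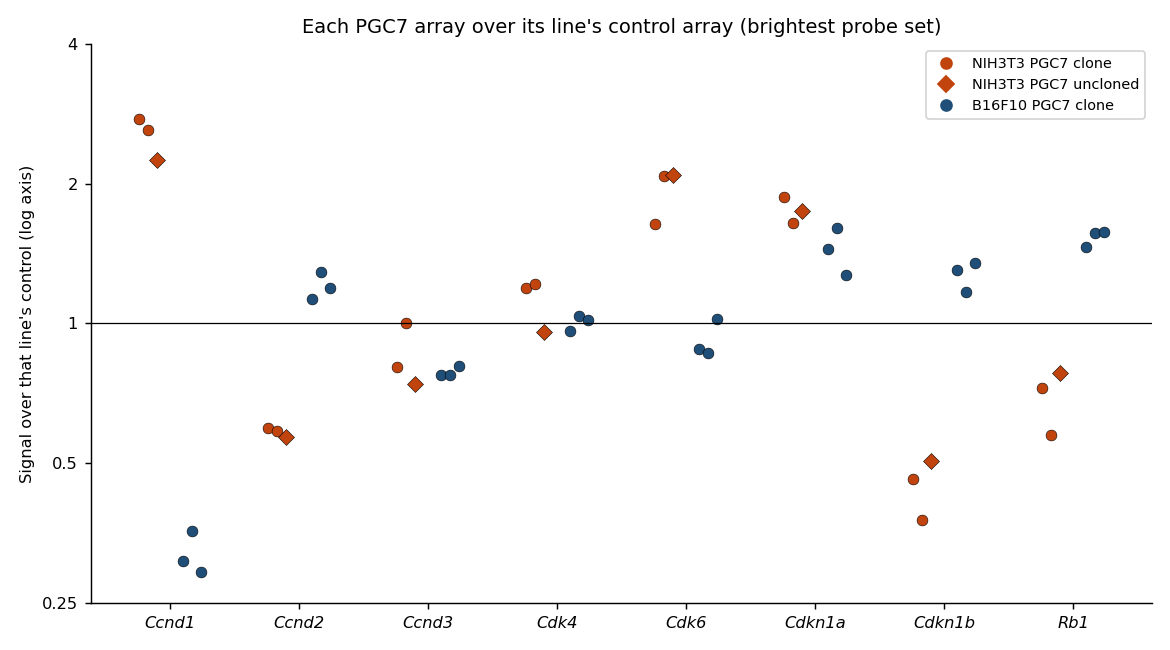
Signal of each PGC7 array divided by that of the control array of its line (log axis, line at 1) for the brightest probe set of 6 of the genes and of Ccnd1 and Cdkn1a. The mean NIH3T3 ratios are 0.449 for Cdkn1b, 0.584 for Ccnd2 and 1.94 for Cdk6, and the mean B16F10 ratios of these genes 1.27, 1.20 and 0.923.

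Between the lines, 7 of the 8 genes differed in the PGC7 arrays, the contrast with 3 arrays on each side, as did 71.1% of all probe sets (30.9% higher and 40.2% lower in B16F10). The 4 arrays of each line did not overlap for 7 of the 8 genes and for 62.9% of all probe sets. Array batches are not known and cannot be told apart from the lines, and the NIH3T3 arrays had been deposited at another scale, so these values rest on the rescaling. Cdkn1b (log2 difference, B16F10 minus NIH3T3, 2.34), Rb1 (1.41), Ccnd2 (1.26) and Cdkn2d (1.03) were higher in B16F10. Cdk6 (-2.19), Cdkn2c (-1.53) and Cdk4 (-0.68) were lower in B16F10, with adjusted p between 6.65e-07 and 3.46e-04 in limma for these 7 genes. The probe sets of Cdk4 disagreed in call: 1422439_a_at had -0.17 in the PGC7 arrays and was not called (adjusted p = 0.153 in limma). In the control arrays it had -0.23. Among the directions of the 7 genes, those of Cdkn2c and Cdk4 turned with the deposited scaling (0.08, and 0.93 with a call). Ccnd3 did not pass the test (-0.16, adjusted p = 0.246 in limma). In the control arrays, with 1 array a side, 5 of the 8 genes were called against 51.2% of all probe sets (20.8% higher and 30.4% lower): Cdkn1b and Cdkn2d higher and Cdk4, Cdk6 and Cdkn2c lower in B16F10. The dimmer Cdkn1b probe set 1419497_at went the other way, with 41.1 in the B16F10 control against 90.3 in the NIH3T3 control (log2 difference -0.99). With the deposited values Cdk4 (0.95, adjusted p = 0.00109 in limma), Cdk6 (0.33) and Cdkn2c (0.16) were higher in B16F10 controls instead, with only Cdk4 called. The Cdk4 call in the controls held in 9 of 15 alternatives and the Cdkn2d call in 11 of 15. In the control arrays the Ccnd2 difference was 0.22 (adjusted p = 0.187 in limma) and that of Rb1 0.28 (adjusted p = 0.379).

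The Ccnd2 probe sets gave unequal line differences. In the PGC7 arrays the B16F10 signal was 41.3 times that of NIH3T3 by 1416123_at, with 3273, 3277 and 3302 in the B16F10 clones, and 19.2 times by 1448229_s_at. By the brightest probe set it was 2.41 times. In the control arrays these ratios were 13.3, 7.78 and 1.17, and 1416124_at gave 0.418, a log2 difference of -1.24 (adjusted p = 0.0142 in limma). The probe sets of this gene thus disagree on the size of the line difference and, in the controls, on its direction, whereas they share the direction of the change within each line.

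Other genes of the pathway are counted here beside the 12.8% of all probe sets called in NIH3T3 and the 1.19% called in B16F10. Of 9 tested G1 cyclins, kinases and activators besides the 10 genes, Ccnd1 and Cdc37, a chaperone cofactor that loads CDK4, rose in NIH3T3 (Cdc37 by 0.40, adjusted p = 0.0411 in limma, held in 5 of 16 alternatives), and Ccnd1 alone was called in B16F10, where it fell. At an unadjusted p under 0.05, 5 of these 9 genes passed in B16F10, against 15.1% of all probe sets. Of 12 pocket protein and E2F genes, E2f8, an atypical E2F repressor, rose in NIH3T3, with 1472, 1125 and 1780 in PGC7 against 601 in the control (log2 change 1.24 ± 0.23, adjusted p = 0.0105 in limma). Of 12 S phase genes, Mcm7, a subunit of the replicative helicase, fell in NIH3T3 (-0.54, adjusted p = 0.0246 in limma), a call that held in 10 of 16 alternatives and was lost with scaling on the poly-A spikes (-0.09, adjusted p = 0.861 in limma) and without clone 2 (-0.48, adjusted p = 0.0529) or B16F10 clone 1 (adjusted p = 0.0555). It was also lost with a constant variance prior (adjusted p = 0.108 in limma), in that line alone (0.121) and with the mean of a gene's probe sets (0.0502). The S phase list's median change was -0.15 in NIH3T3 and -0.11 in B16F10, against -0.07 and 0.02 over all probe sets. In NIH3T3 4 of its 12 genes had an unadjusted p under 0.05, against 28.8% of all probe sets. These were Ccna2, Mcm5, Mcm7 and Tyms, all lower. Mcm5 had a change of -0.58 (adjusted p = 0.0521 in limma), whereas Mcm3 had 0.55 (adjusted p = 0.240), neither called. In B16F10 0 genes of these 2 lists were called in limma, and at an unadjusted p under 0.05 there were 3 of the pocket protein and E2F genes and 0 of the S phase genes. Of 5 Polycomb genes known to repress Cdkn2a, only 1, Rnf2, had a change above 0 in NIH3T3, and the list's median was -0.14. Rnf2 rose (4838 ± 586 in PGC7, SD, n = 3, against 2374 in the control, log2 change 1.02 ± 0.14, adjusted p = 0.00302 in limma). Bmi1 had 3379, 3247 and 2733 in NIH3T3 PGC7 against 4257 in the control and was not called (-0.45, adjusted p = 0.0739 in limma). Rnf2 and Bmi1 were the 2 with an unadjusted p under 0.05 in NIH3T3, in opposite directions. In B16F10 0 were called, also at an unadjusted p under 0.05. The Rnf2 call held in 15 of 16 alternatives and was lost with the deposited values (0.88, adjusted p = 0.0509 in limma).

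The spread of the members among the PGC7 cultures of a line was read by their brightest probe sets. The highest over the lowest of the 3 signals was 1.05 to 1.36 in NIH3T3 and 1.05 to 1.28 in B16F10 across the 8 genes. The medians over all tested probe sets, which include dimmer ones, were 1.40 and 1.23. Ccnd2 had the smallest such ratio in NIH3T3 (1.05), and Rb1 and Ccnd3 the widest (1.36). The uncloned culture held the lowest Ccnd2, Ccnd3, Cdk4 and Cdkn2d and the highest Cdkn1b, Cdk6 and Rb1 signal of its group. Some of these gaps were small, as in Cdk6 (2346 against 2325 in clone 2) and Ccnd2 (4787 against 4930 in clone 2). How often this culture ranked lowest or highest over all probe sets was not counted, so the ranks are a description only.

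Genes near the members on the chromosome were read beside the 6.32% of all probe sets called lower and 6.47% called higher in NIH3T3. Among the 20 nearest tested genes of Ccnd2, the NIH3T3 median change was -0.22, with 6 of 20 called lower, as Ccnd2 was, and 1 higher. Among those of Cdkn1b it was -0.10, with 3 of 20 called lower and 1 higher. Of the 10 nearest tested genes of Cdk6, 9 had a change below 0 and 3 were called lower, with a median of -0.33, while Cdk6 itself rose.

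The genes whose pattern was most like each called member were taken by Pearson's r over the 8 arrays after the mean of each line had been subtracted, among 11642 genes, as a description. For Cdkn1b these were Lum (0.994), Dnajc12 (0.992) and Ano3 (0.989). For Ccnd2 they were Bbs7 (0.993), Palm2 (0.991) and Mcts1 (0.987), and for Cdk6 Fgf2 (0.987), Pi16 (0.985) and Smg9 (0.985). Among the members r was 0.899 between Cdkn1b and Ccnd2, 0.836 between Cdkn1b and Rb1, and -0.911 between Ccnd2 and Cdk6. The points share 1 control array per line and the array scaling.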

How the data were processed

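Total RNA of 8 cultures was measured on Affymetrix arrays. For each probe set the authors deposited 1 linear intensity, the MAS5 signal per the submitters' processing notes. The version and settings of MAS5 are not given in the sources used here. Trimmed means, leaving out 2% at each end, were 500.003 in every B16F10 column and 143.446 to 188.666 in the NIH3T3 columns, so all were scaled to 500. Values were taken as log2(signal + 9), the offset being the rounded 25th percentile. Control probe sets (64) and those under the median (signal 49.3) in both lines (19801) were left out, and 25236 were tested.

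A model of 4 group means over all 8 arrays was fitted with limma 3.58.1 in R 4.3.3, with an intensity-dependent variance prior (8.5 degrees of freedom), two-sided, with Benjamini-Hochberg adjustment over all tested probe sets. It was tested on simulated data. Tables were made with Python 3.11.15 and pandas 2.3.3. Probe sets with 1 symbol (34945) were named from the platform annotation, and chromosomes and gene order come from the RefSeq annotation of GRCm38.p6. The number of arrays limits the precision.

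The named genes are the 10 members, by every probe set, and genes of pathway lists that were called or had the largest change, at most 4 a list. The members and lists were chosen with earlier results of these data known. Alternatives changed the scaling, offset, filter, variance prior, fitted arrays, each PGC7 replicate, the replicate block and the choice of probe set. Clone numbers 1 and 2 occur in both lines, but nothing in the labels pairs them.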

Additional observations from a re-analysis of the deposited data

Results flagged for a closer look

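The changes with PGC7 differed between the lines by a test of the difference itself, the NIH3T3 change minus the B16F10 change, in limma. For Cdkn1b this difference was -1.50 on the log2 scale. For Ccnd2 it was -1.04 by the brightest probe set 1434745_at, -1.25 by 1416122_at, -1.44 by 1430127_a_at, -1.69 by 1455956_x_at, -1.29 by 1448229_s_at, -1.55 by 1416123_at and -1.90 by 1416124_at. For Cdk6 it was 1.11 by 1435338_at. In each case the NIH3T3 change was called and the B16F10 change was not. Groups of 3 arrays were not tested for single high or low values. The uncloned NIH3T3 culture stands apart by the number of probe sets called without it, which was 6124 in NIH3T3, 1814 in B16F10 and 4407 for the difference, against 3229, 300 and 1737 with all arrays.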

How the results depend on the processing

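The number of called genes among the 8 tested was recomputed with 1 choice changed at a time. In NIH3T3 it was 3, and 1 with scaling on the poly-A spikes (Cdk6) and 1 in the NIH3T3 arrays alone (Ccnd2). In B16F10 it was 0, and 1 in the B16F10 arrays alone (Rb1). For the difference between the lines' changes it was 2, and 4 with the offset at the median, 4 with the filter at the 75th percentile and 0 with a constant variance prior (4 at an unadjusted p under 0.05, limma; Cdkn1b -1.50 and Ccnd2 -1.04 as before). With the spikes it was again 2, but 2 higher and 0 lower (Cdkn2c 1.15 and Cdk6 1.99), against 0 higher and 2 lower (Cdkn1b and Ccnd2). For the lines' control arrays it was 5, and 3 without a filter and 3 with a constant prior; the spikes gave 5 higher and 0 lower and the deposited values 6 and 0, against 2 and 3. Between the lines in PGC7 the deposited values gave 6 higher and 1 lower, against 4 and 3. Leaving out 1 PGC7 replicate at a time gave 3 to 4 in NIH3T3, 0 to 0 in B16F10, 2 to 4 for the difference (4 without the uncloned NIH3T3 array, which added Cdk6 and Rb1), 7 to 8 between the lines in PGC7 and 3 to 5 in the controls (3 without B16F10 clone 1).

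Directions between the lines turned with the values as deposited for Cdkn2c (0.08 in PGC7, 0.16 in controls), Cdk4 (0.93 and 0.95), Ccnd3 (1.44 and 1.41) and, in controls, Cdk6 (0.33). With scaling on the poly-A spikes they turned in controls for Cdk4 (0.41) and Ccnd3 (0.88), and with the mean of all probe sets for Cdkn1b in controls (-0.08). The spikes moved the median change of all probe sets to 0.35 in NIH3T3 and -0.45 in B16F10, against -0.07 and 0.02. Under them the uncalled B16F10 changes of Cdkn1b, Ccnd2, Cdkn2d and Cdk4 turned to -0.15, -0.23, -0.17 and -0.49, and the uncalled NIH3T3 changes of Cdkn2d and Ccnd3 to 0.43 and 0.20. Of all called probe sets, 83.5% were higher in NIH3T3 with the spikes and 36.7% with the deposited scaling, against 50.6%. In B16F10 26.3% were higher with the spikes, against 77.7%, and for the difference 93.1%, against 44.8%. Over all settings the number of called probe sets was 1151 to 6124 in NIH3T3 (3229 as reported), 59 to 2196 in B16F10 (300) and 739 to 4861 for the difference (1737). The 6124 came from leaving out the uncloned culture and the 59 from leaving out B16F10 clone 3. Both the 1151 and the 2196 came from fitting each line alone, so the order of the lines by this number depends on the fit. The causes were not tested.

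Same-numbered clones of the lines did not deviate together (r = 0.00917 for clone 1 and -0.0972 for clone 2). With the replicate block 2 genes were called for the difference and 7 between the lines in PGC7, the same numbers as without it, and 946 probe sets of all for the difference, against 1737.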
